A study of Mus musculus with 8 samples.

Results

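The 4 arrays made from mice at day 5 of the trial, out of 8 arrays in all, each set a pool of epididymal fat RNA from mice fed conjugated linoleic acid (CLA) directly against a pool from mice fed linoleic acid (LA). The arrays were chosen by the day in their titles, which uses no measured value, and the remaining 4 come from day 14. All mice, treated and control, were of a polygenic obese stock; the labels give no strain, sex, age or dose. On arrays 1 and 2 the CLA pool carried the dye Cy5 and the LA pool Cy3, and on arrays 3 and 4 the dyes were exchanged. Each pool combined 4 or 5 mice, so 1 array averages several animals on both sides and shows no spread between them. The labels do not say whether any arrays share a pool or how the fat was dissected, so the 4 arrays are taken as replicates and p-values reflect no spread beyond that among arrays.

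Epididymal fat is the visceral depot of male mice that is attached to the epididymis and lies next to the testis. Its adipocytes store triglyceride and secrete hormones such as adiponectin, resistin and leptin, and endothelial cells, fibroblasts and macrophages lie among them. CLA is a group of isomers of linoleic acid known for reducing fat mass in mice, and LA, the unconjugated form, was the control. The epididymis makes its own secreted lipocalins, beta-defensins and protease inhibitors for maturing sperm, and spermatids make protamines and transition proteins that pack sperm DNA. These transcripts are not characteristic of fat.

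Values are log2 ratios, CLA over LA, for 16504 genes, where 1 unit is a doubling. The unit of the deposited values was inferred; were they log2 already, every size here would be 3.32 times too large. The direction is likely rather than stated. Its basis is that the labels call CLA the treatment, and that Ucp1 is above 0 on every day 14 array, so the sign of Ucp1 is no independent finding. Taking the signs of arrays 3 and 4 as deposited rests on 473 probes without a gene symbol. Their day 5 mean exceeded 2 log2 units in size once the deposited values of arrays 3 and 4 were reversed in sign. A spot bright in 1 dye has such a reversed mean, and no large plain mean, where the deposited signs were already turned. Probes with a plain mean over that size numbered 1 without a symbol and 1 with one. Against this, arrays of opposite dyes mostly disagreed: on arrays 2 and 4, 3 genes were over 1 on both and 2 under −1 on both, while 138 passed that size in opposite directions. On arrays 1 and 3, 37 genes were over 1 on both, 84 under −1 on both and 75 opposite. A ratio gives no level, so the fat identity of the tissue can be checked only through genes that differ between the pools.

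No gene was called at day 5. In limma's fit of the 4 arrays with a dye term, the smallest Benjamini-Hochberg adjusted p was 0.812, and 0% of genes passed an adjusted p of 0.05. At an unadjusted p under 0.05 there were 190 genes higher with CLA (1.15% of all) and 574 lower (3.48%). All 4 arrays were above 0 for 371 genes (2.25%) and below 0 for 534 (3.24%). The fit's count rested on array 4: without it, 981 genes were called higher (5.94%) and 108 lower (0.654%). Of the 981, 980 were over 1 on array 3, where their median was 2.34, against 0.01 on array 1, −0.05 on array 2 and −0.05 on array 4. In that fit array 3 is the only array of its dye orientation. Without any other single array, and with arrays 3 and 4 turned, limma again called 0 genes.

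The 4 arrays differed in their spread. The median absolute deviation over genes was 0.171 on array 1, 0.183 on array 2, 0.389 on array 3 and 0.334 on array 4, whereas spots of repeated probes varied by a median SD of 0.085 to 0.141 on every array. Array 3 had 1801 genes over 1 (10.9% of all) and 1129 under −1 (6.84%). Array 4 had 550 (3.33%) and 647 (3.92%), and array 1 had 283 (1.71%) and 186 (1.13%). Array 2 had the fewest, 61 above (0.37%) and 166 below (1.01%). Array 3 therefore carried more large ratios than any other array.

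Across the 16504 genes, arrays 1 and 2 correlated with r = 0.26 and arrays 3 and 4 with r = 0.22, each pair sharing a dye orientation. Between orientations r was 0.03 for arrays 1 and 3, −0.44 for 1 and 4, −0.35 for 2 and 3, and −0.61 for 2 and 4. Genes are not independent and arrays share dye effects, so these are descriptions. When each gene's dye effect, estimated on the day 14 arrays alone, was subtracted, r was 0.30 for arrays 1 and 2 and −0.14 for arrays 3 and 4, so the correlation of the latter pair turned negative. Between orientations it was then 0.16 for arrays 1 and 3, −0.24 for 1 and 4, −0.02 for 2 and 3, and −0.09 for 2 and 4. That subtraction was chosen after the values had been seen.

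Epididymis transcripts were high on array 1. Of 70 epididymis markers, 38 were measured, and 26 of them were over 1 on array 1, against 1.71% of all genes there. Their median was 2.06 on array 1, −0.12 on array 2, −0.36 on array 3 and −0.58 on array 4, against medians of all genes between −0.06 and 0. The 38 members ran from −0.12 to 3.03 on array 1, and 36 of them were above 0. With the day 14 dye effects subtracted the medians were 1.85, −0.08, −0.32 and −0.49 on arrays 1 to 4. The medians on the 4 day 14 arrays were −0.36, −0.03, −0.16 and −0.07, but single members went far from 0 there too. Under −1 were 4, 3, 6 and 4 of the 38, against 1.41%, 0.848%, 4.52% and 1.83% of all genes, and the list ran from −5.03 (Lcn5) to 2.64 (Spink8).

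Spink8 and Spink12, serine protease inhibitors of the Kazal type, were both at 3.03 on array 1, a difference of 8.18-fold and 8.19-fold. On arrays 2, 3 and 4 Spink8 stood at 0.82, −1.43 and −0.76, and Spink12 at 0.71, −1.23 and −1.16. Array 1 was the highest array for both, and arrays 3 and 4 were below 0. Among the beta-defensins, small antimicrobial peptides, Defb12 was at 3.00, 0.54, −1.30 and −1.07 on arrays 1 to 4, and Defb41 at 2.81, 0.08, −0.56 and −1.53. Not every defensin was high on array 1: Defb11 was at 0.64 there, and Defb9 at 0, 0.16, −0.50 and −0.73 on arrays 1 to 4. Lcn5, a lipocalin that binds retinoic acid, was at 2.83, 1.04, −2.06 and −0.11. For Lcn5 array 3 was as clearly below 0 as array 1 was above it, so these arrays differed in sign. Gpx5, a glutathione peroxidase secreted by the epididymis, was at 2.53, −0.89, −1.68 and 0.53.

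Further members over 2 on array 1 were Adam7 (2.63), a membrane metalloprotease-like protein of the epididymis, Adgrg2 (2.14), a receptor of the efferent ducts, Ros1 (2.06), a receptor tyrosine kinase of the initial segment, and the cystatin Cst12 (2.04), which was also at 1.37 on array 3 and 1.24 on array 4. The general markers Pax8 (0.57) and Wfdc2 (0.43) were lower there. Pax2 was at 0.07 and Aqp9 at 0.01 on array 1. Pax8, Wfdc2 and Aqp9 were named after their values had been seen. On array 4, 11 of the 38 members were under −1, against 3.92% of all genes, among them Defb11 (−1.88) and Defb10 (−1.78). On array 3, 10 were under −1, against 6.84%.

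The gene standing farthest above the other arrays on array 1 was none of these: Mybphl, a relative of myosin-binding protein H, was at 4.28, −0.06, 0.18 and 0.57 on arrays 1 to 4. In all, 177 genes were over 1 unit above the other 3 arrays on array 1 (1.07% of all), and 14 were over 1 unit below them (0.0848%). Pate6 (2.84) and Pate5 (2.27), of a family of small secreted proteins, the solute carrier Slc38a5 (2.52), Cuzd1 (2.59), and the protease inhibitors Spink5 (2.58) and Spint4 (2.66) were among the 15 farthest above. The lowest on array 1 relative to the others included Slc1a3 (−2.08), a glutamate transporter, Cldn5 (−1.98), a tight junction protein of endothelium, and Dgat2 (−2.09), the final enzyme of triglyceride synthesis.

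Testis transcripts were high on array 3. Of 60 germ cell markers, 58 were measured, and all 58 were above 0 on array 3, 51 of them over 1, against 10.9% of all genes on that array. Their median was −0.04 on array 1, −0.08 on array 2, 2.75 on array 3 and −0.05 on array 4. The lowest member on array 3 was at 0.25 and the highest at 6.78, whereas on array 1 the members lay between −0.58 and 0.75. The germ cell markers thus stood out on array 3 and not on array 1. In the fit of all 4 arrays the median of the list was 0.65, and without arrays 1 and 3 it was −0.05. For the epididymis list these were 0.12 and −0.40.

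Prm1, protamine 1, stood at −0.21, −1.34, 6.78 and 0.71 on arrays 1 to 4, which on array 3 is 110-fold higher with CLA in the direction and unit taken here. Tnp1, transition protein 1, stood at 0.04, −0.75, 6.51 and −0.32. Both proteins replace histones in the spermatid nucleus, and for both array 3 was higher than the rest by over 6 units. Meig1, needed for the shaping of spermatids, was at 0.39, −0.77, 6.40 and −1.38, and Ldhc, the lactate dehydrogenase of sperm, at −0.05, −0.38, 5.89 and −0.42. Hils1, a spermatid histone-like protein, was at 5.72 on array 3, and Ddx4, an RNA helicase of germ cells from their earliest stages, at 5.32. Odf1 (5.43) and Akap4 (5.40), which build the sperm tail, were similar. Fabp9, the testis fatty acid-binding protein, had been placed on the epididymis list, but was at 5.96 on array 3 and 0.01 on array 1.

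Testis genes outside the germ line were also high on array 3. Of 16 Leydig and Sertoli cell markers 15 were measured, with medians of 0, 0.16, 1.23 and 0 on arrays 1 to 4, and 9 were over 1 on array 3. Hsd3b1, a steroid dehydrogenase of Leydig cells, was at 4.63 on array 3, Insl3, a Leydig cell hormone, at 4.33, and Amhr2, the receptor for anti-Müllerian hormone, at 3.94. Star, which moves cholesterol into mitochondria, was at −0.61, 1.32, 2.90 and 0.13. Sertoli markers varied: Amh was at 1.23 on array 3, while Fshr was at −0.85 and Sox9 at 0.07. Sox9 was named after its values had been seen. The 9 measured seminal vesicle and vas deferens markers had medians of 0.09, 0.06, −0.31 and −0.28, and none passed 1 in size on any day 5 array.

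In all 1240 genes stood over 1 unit above the other arrays on array 3 (7.51% of all), and 519 over 2 units. The opposite, over 1 unit below, held for 176 genes (1.07%). Clec2m, a lectin-like gene, led at 6.97, and Fhl4 (6.51), Cypt1 (6.73), Ropn1l (6.54), Prss39 (5.58), Dnah8 (5.90), Tcte3 (5.95), Capza3 (5.79) and Cox7b2 (5.19) followed. Several of these have known roles in sperm: Dnah8 is a dynein heavy chain of the tail, Capza3 an actin-capping subunit of spermatids and Cox7b2 a respiratory subunit of testis. Genes lowest on array 3 relative to the rest included Gcc2 (−3.99), a Golgi protein, Fabp4 (−1.66), the fatty acid-binding protein of adipocytes, H2-Eb1 (−1.97), a class II antigen presenter, and S100a8 (−2.37), a neutrophil protein. Markers of blood were low there too: Hba-a1, alpha globin, was at 1.17, 0.91, −2.62 and 0.60 on arrays 1 to 4.

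**Figure D1:**
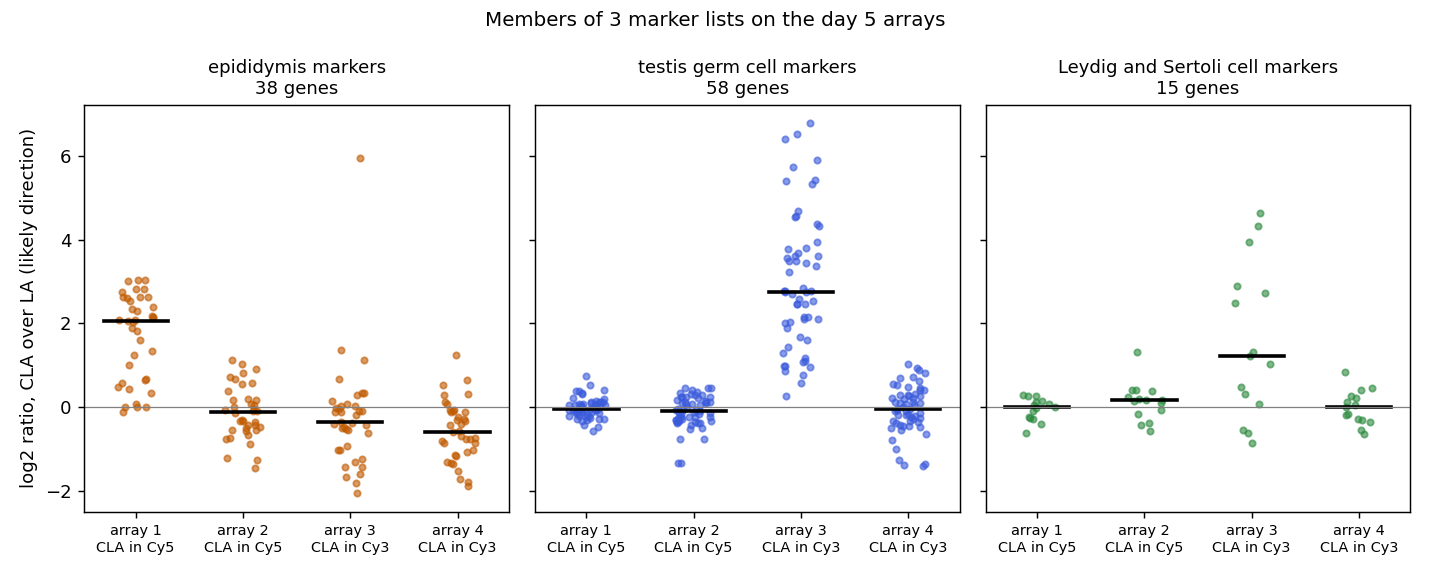
Log2 ratio (CLA over LA, likely direction) of each measured member of 3 marker lists on each day 5 array; points are genes and black bars medians. The 38 epididymis markers have a median of 2.06 on array 1, the 58 germ cell markers one of 2.75 on array 3, and the other medians of these 2 lists lie between −0.58 and −0.04.

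Because the transcripts of each organ moved together, the stretches just before the start of the leading genes are shown, taken from RefSeq (GRCm38.p6). For each list they are the 3 members highest on their array that have 1 entry in that table and do not lie on a chromosome left out here. Each runs for 150 bases and ends at the base before the annotated start. In the germ cell genes, capitals mark TGANNTCA, a loose form of the cAMP response element to which the testis activator CREM binds in mice. It reads the same on both strands. Prm1 lies at chr16:10796824-10796973, minus strand, Tnp1 at chr1:73015900-73016049, minus strand and Hils1 at chr11:94967443-94967592, plus strand.
Prm1: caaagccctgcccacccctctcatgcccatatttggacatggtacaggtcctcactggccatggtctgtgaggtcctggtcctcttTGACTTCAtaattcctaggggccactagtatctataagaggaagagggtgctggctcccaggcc
Tnp1: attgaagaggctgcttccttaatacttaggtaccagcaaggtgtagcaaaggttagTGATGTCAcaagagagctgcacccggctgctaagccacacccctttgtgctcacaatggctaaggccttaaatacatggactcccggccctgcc
Hils1: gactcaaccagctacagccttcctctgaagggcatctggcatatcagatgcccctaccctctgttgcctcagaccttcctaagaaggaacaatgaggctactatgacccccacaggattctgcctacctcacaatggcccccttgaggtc
Prm1 and Tnp1 each held 1 match and Hils1 none in this window. Of all 32851 promoters in the table, 8.37% held a match in the same window, and of 57 promoters of 46 germ cell markers 19 did, or 33.3%. In 33 promoters of 26 epididymis markers there was 1.

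For the epididymis genes, capitals mark AGAACA or its complement TGTTCT, a short element of androgen receptor sites, on which many epididymis genes depend. Neither motif occurs in the windows shown for the other list. Lcn5 lies at chr2:25657802-25657951, plus strand, Defb41 at chr1:18265139-18265288, minus strand and Lcn9 at chr2:25823003-25823152, plus strand.
Lcn5: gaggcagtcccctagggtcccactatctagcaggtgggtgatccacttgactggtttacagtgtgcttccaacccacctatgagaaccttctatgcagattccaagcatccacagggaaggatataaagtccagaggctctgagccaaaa
Defb41: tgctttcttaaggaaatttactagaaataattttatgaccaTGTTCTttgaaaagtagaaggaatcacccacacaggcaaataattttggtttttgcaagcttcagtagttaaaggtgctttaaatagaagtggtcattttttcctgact
Lcn9: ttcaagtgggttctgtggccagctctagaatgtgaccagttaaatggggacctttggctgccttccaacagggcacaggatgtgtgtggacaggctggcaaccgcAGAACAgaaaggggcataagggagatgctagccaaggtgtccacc
Defb41 and Lcn9 each held 1 match and Lcn5 none. Of all promoters 9.62% held one, and of the 33 epididymis promoters 7 did, or 21.2%, against 2 of the 57 germ cell promoters. A match is a description of letters, and its part in these ratios was not tested.

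Arrays 1 and 3, which carry opposite dyes and were high in transcripts of different organs, shared low ratios of fat cell genes that arrays 2 and 4 lacked. Nnat, the imprinted gene neuronatin, was at −4.28, −0.22, −4.29 and 0.30 on arrays 1 to 4. That is 19.4-fold and 19.6-fold lower with CLA on arrays 1 and 3, and near equality on the other pair. Its mean was −2.12 ± 1.05 (SE, n = 4 arrays, limma adjusted p = 0.812), and without arrays 1 and 3 it was 0.04. Car3, the carbonic anhydrase abundant in adipocytes, was at −2.95, 0.65, −3.39 and 1.08. Adipoq, which encodes adiponectin, was at −2.29, 0.42, −2.55 and 0.70. Mest, an imprinted gene that follows fat cell enlargement, was at −1.91, 0, −3.00 and 0.78.

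Retn, resistin, was at −2.13, 0.58, −1.84 and 1.89, so array 4 was as far above 0 as array 3 was below it. Lep, leptin, did not follow: it was at −0.05, −0.23, −0.10 and 0.28. Ucp1, the uncoupling protein of brown and beige fat, was at 1.95, −0.31, 1.97 and −0.40, higher 3.86-fold and 3.91-fold on arrays 1 and 3. Its mean of 0.80 ± 0.57 was within the spread of the arrays (adjusted p = 0.812). The other members of the thermogenesis list stayed apart from it, with list medians of −0.02, 0.06, −0.13 and −0.10, and Ppargc1a, a coactivator of mitochondrial genes, was at −0.10, 0.16, −0.62 and −0.61.

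Of 38 adipocyte and lipid droplet markers 36 were measured. Their medians were −0.74, −0.02, −1.21 and 0.84, and 13, 3, 19 and 0 members were under −1 on arrays 1 to 4, against 1.13%, 1.01%, 6.84% and 3.92% of all genes. On array 4, 14 were over 1, against 3.33%. At an unadjusted p under 0.05 only Plin2 of the 36 passed, upward. Pparg, the master regulator of fat cell differentiation, was at −0.78, 0.35, −1.65 and 0.42, and Thrsp, a lipogenic gene, at −2.45, −0.34, −2.16 and 1.87. Fabp4 differed, at 1.23, 0.91, −1.66 and 1.31, low on array 3 alone. Lpl, lipoprotein lipase, was at −0.13, 0.58, −1.40 and 0.99, also low on array 3 alone.

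In bulk tissue, fewer cells of a type and less RNA per cell cannot be told apart. The adipocyte medians were lowest on the same arrays on which epididymis (2.06, array 1) or germ cell markers (2.75, array 3) were highest, and the part of those transcripts in the low ratios was not tested. The low ratios were not uniform on either array. On array 1 Plin2 (1.09) and Fabp4 (1.23) were above 0, and on array 3 Plin2 (0.60), with Scd1, a desaturase, at −0.15. Endothelial markers were low on the same arrays and, by less, on array 2: the 20 measured had medians of −0.78, −0.28, −0.91 and 0.32. Below 0 were 20, 18, 19 and 3 of them on arrays 1 to 4. Macrophage markers had medians of 0.47, −0.03, −0.09 and 0.22 over 34 genes.

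**Figure D2:**
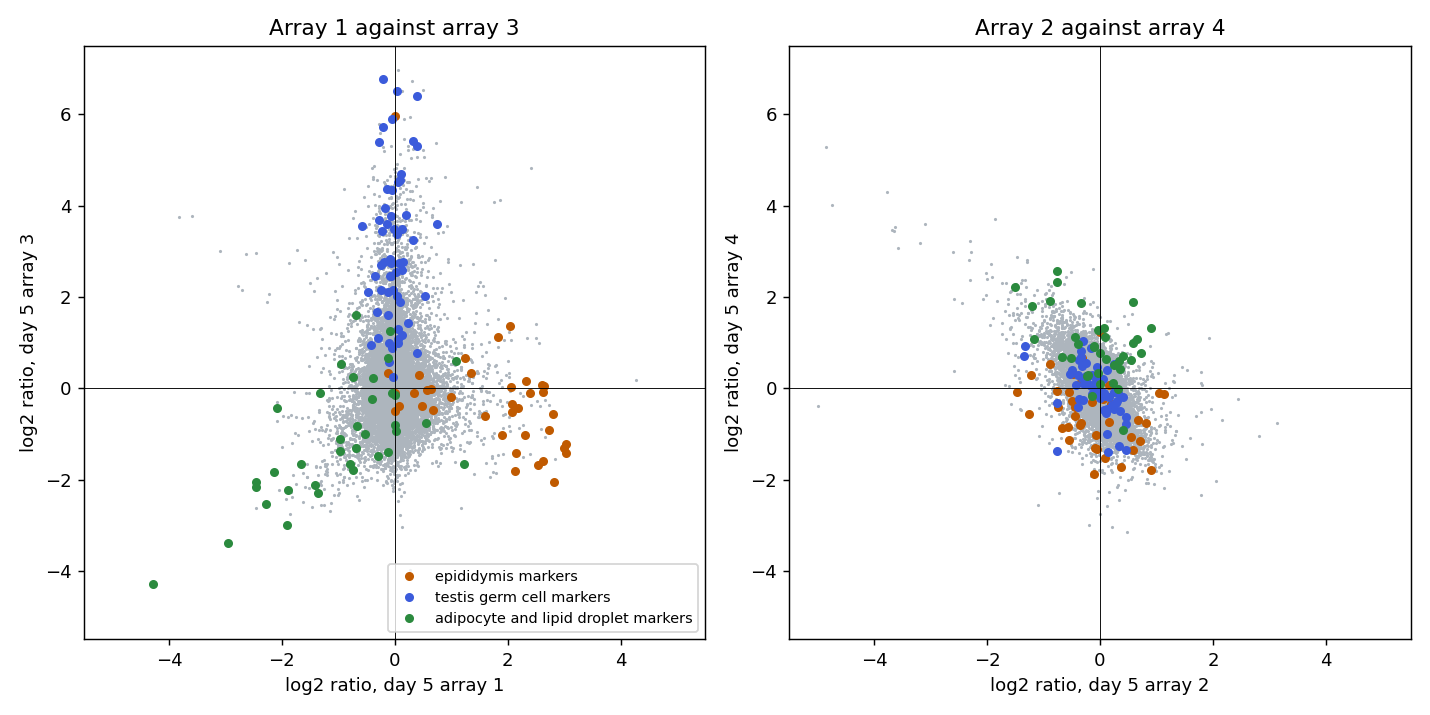
Log2 ratios of all 16504 genes (grey) on day 5 array 1 against array 3 and array 2 against array 4, with 3 marker lists in colour. On arrays 1 and 3, 84 genes were under −1 on both; on arrays 2 and 4 there were 2 such genes.

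The genes shared by arrays 1 and 3 were set against day 14, whose arrays were not used to pick them. Of the 84 genes under −1 on both arrays, 83 were below 0 in the mean of the day 14 arrays, against 49.7% of all genes, with a median of −0.94. Of the 84, 50 were among the genes called lower there, against 1.04% of all. Of 37 genes over 1 on both, 21 were above 0 at day 14, against 50.3% of all genes, and 16 below, with a median of 0.11. Arrays 3 and 4, of the same dye orientation, shared 228 genes under −1. Of these, 193 were below 0 at day 14, with a median of −0.13 and 6 called lower. Arrays 1 and 2 shared 39, of which 28 were below 0 at day 14, with a median of −0.19 and 1 called lower. Arrays 2 and 4 shared 2 and arrays 1 and 4 none. By sign alone, a day 14 mean below 0 was thus not particular to the genes of arrays 1 and 3. Genes shared by arrays 3 and 4 or by arrays 1 and 2 had day 14 medians nearer 0, and fewer of them were called lower.

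The reverse view started from day 14. In a fit of those 4 arrays alone, limma called 88 genes higher (0.533% of all) and 172 lower (1.04%). The 172 had medians on the day 5 arrays of −0.89, 0.01, −1.32 and 0.18, and 150, 84, 153 and 72 of them were below 0 on arrays 1 to 4. Of all genes 8313, 8324, 8997 and 8353 of 16504 were. The 88 had medians of 0.37, −0.10, 0.23 and 0.29, with 67, 33, 62 and 59 above 0. So the genes lower at day 14 were mostly lower on arrays 1 and 3 at day 5, and split evenly on array 2. Subtracting the day 14 dye effects gave −1.09, −0.31, −1.11 and 0.52 for the 172. Their medians on day 14 arrays 1 to 4 were −0.41, −0.56, −1.10 and −1.03. The choice of the 172 and the subtraction thus use the same values, which lowers arrays 1 and 2 and raises arrays 3 and 4. Without arrays 1 and 3 the median of the 172 was 0.10. The correlation of each array with the day 14 mean over all genes was 0.32, −0.05, 0.24 and 0.10, and 0.46, 0.27, 0.16 and −0.08 after that subtraction. Array 2 thus moved up from near 0 and array 4 turned slightly negative. The subtracted dye effects and the day 14 mean come from the same 4 arrays. These shifts are therefore not independent of the day 14 values, and no likeness to day 14 is read from them.

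**Figure D3:**
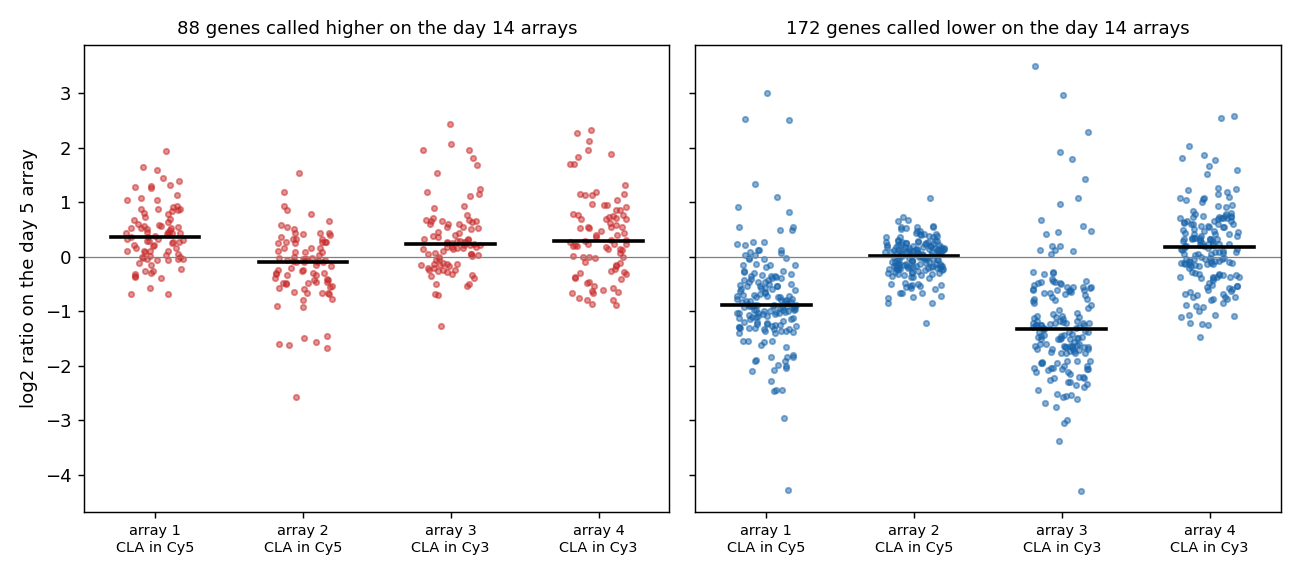
Log2 ratios on each day 5 array of the 88 genes called higher and the 172 called lower when only the day 14 arrays were fitted; points are genes, black bars medians. The 172 have medians of −0.89 and −1.32 on arrays 1 and 3 and of 0.01 and 0.18 on arrays 2 and 4.

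None of the 905 genes on the same side of 0 on all 4 arrays was called (limma adjusted p = 0.812 for each of the 30 named by smallest p). Among the higher ones, Plin2, the coat protein of small lipid droplets, was at 1.09, 0.09, 0.60 and 1.12, a mean of 0.72 ± 0.22. Hmox1, heme oxygenase 1, which is induced by oxidative stress, was at 1.22, 0.43, 1.93 and 0.33. Me1, malic enzyme, which supplies NADPH for fatty acid synthesis, was at 0.61, 0.09, 0.52 and 1.04. All 3 genes were lowest on array 2 or 4, and all 3 were above 0 on the 4 day 14 arrays, with means of 1.16, 1.33 and 1.10. Fosl1, an AP-1 subunit, was at 0.52, 1.53, 0.54 and 0.40 (day 14 mean 0.97). Pdk4, a kinase that slows glucose oxidation, was at 1.31, 0.32, 0.23 and 0.77.

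Ssx2ip, a centrosome protein, had the smallest p of the higher genes, at 1.37, 0.59, 0.97 and 1.08 (1.00 ± 0.17). It was below 0 on all 4 day 14 arrays, at −0.87, −0.04, −0.11 and −0.37. Sox6, a transcription factor, was at 0.76, 0.35, 0.71 and 0.59. Stambpl1 (0.47 ± 0.11), Ccdc57 (0.41 ± 0.11), Hspb6 (0.41 ± 0.11), Tbc1d21 (0.81 ± 0.24), Kcng3 (0.40 ± 0.12), Lyrm1 (0.37 ± 0.11), Cartpt (0.38 ± 0.12) and Psme3 (0.37 ± 0.12) were the others of known name.

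Among the lower genes, Icam2, an adhesion molecule of endothelium, was at −0.96, −0.85, −0.38 and −1.10, a mean of −0.83 ± 0.16. Igfbp7, a secreted binding protein of vessel walls, was at −0.74, −0.70, −0.69 and −0.30, and Thsd1, also of endothelium, averaged −0.49 ± 0.11. Emp2, a membrane protein, had the tightest set, −0.43, −0.63, −0.64 and −0.54. Without arrays 1 and 3, Icam2, Igfbp7, Thsd1 and Emp2 averaged −0.98, −0.50, −0.56 and −0.58. The genes were picked for lying below 0 on every array, so the sign of these averages was fixed by that choice. Igf2, the imprinted growth factor, was at −0.40, −0.18, −0.93 and −0.72, and Lama5, a basement membrane laminin, at −0.16, −0.16, −1.46 and −0.90.

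Some of the genes with the smallest p were split by dye. Of the higher genes, Stambpl1 was at 0.21, 0.08, 0.81 and 0.77 on arrays 1 to 4, and Hspb6 at 0.23, 0.05, 0.66 and 0.70. The lower genes held such splits too. Ethe1, a mitochondrial sulfur dioxygenase, was at −0.25 and −0.16 on arrays 1 and 2 and at −1.18 and −1.49 on arrays 3 and 4. H2ac8, a histone, was at −0.20, −0.07, −1.10 and −1.49, and Ecrg4, a secreted peptide, at −0.58, −0.21, −1.19 and −1.14. With the day 14 dye effects subtracted, Ecrg4 was at −1.05, −0.68, −0.72 and −0.67, whereas Hoxb1 went from −0.46, −0.66, −0.68 and −0.49 to 0.41, 0.21, −1.56 and −1.37. The Hoxb1 values lie on 1 side of 0 only before that step. Ccl21c, a lymphoid chemokine, was at −1.56, −0.88, −0.11 and −0.19, and Klhl4 at −0.65, −0.42, −0.64 and −0.36. The same step took Ccl21c to −1.82, −1.14, 0.15 and 0.06, and Klhl4 to 0.12 on array 4. Of the higher genes above, Plin2 (−0.30), Me1 (−0.01) and Pdk4 (−0.49) were then below 0 on array 2. Hmox1, Fosl1, Icam2, Igfbp7, Thsd1 and Emp2 stayed on 1 side of 0.

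**Figure D4:**
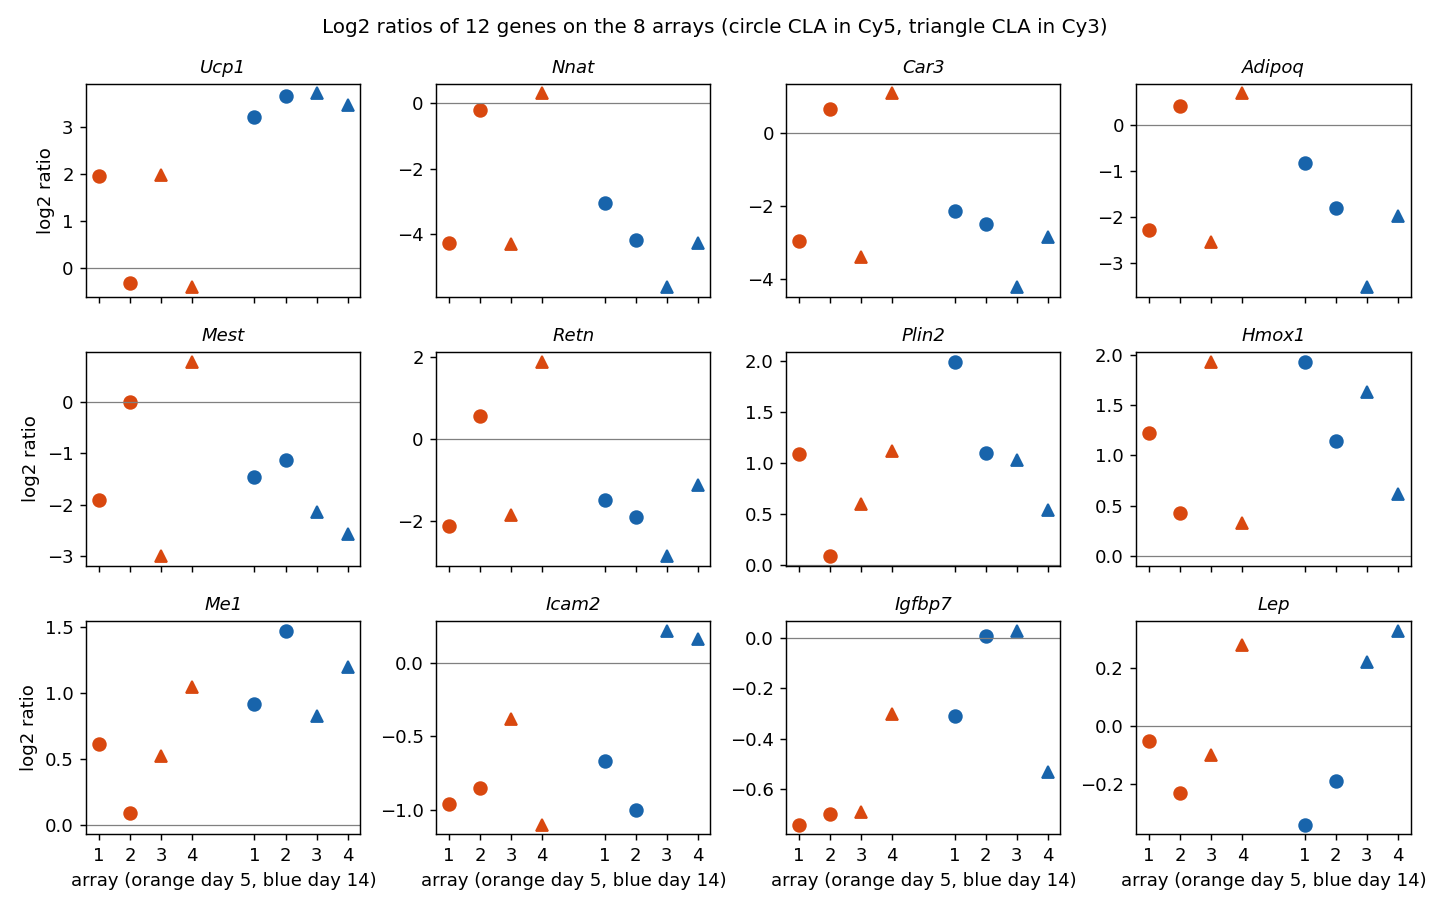
Log2 ratios of 12 genes on the 8 arrays; circles are arrays with CLA in Cy5 and triangles with CLA in Cy3, orange for day 5 and blue for day 14, each panel with its own vertical scale. For Nnat, Car3, Adipoq, Mest and Retn the points of day 5 arrays 1 and 3 lie with the day 14 points, and those of arrays 2 and 4 above them.

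On array 2, which had the fewest large ratios, 5 of the 8 genes farthest above the other arrays are known to be induced by interferon. Iigp1, an interferon-inducible GTPase, was at −0.44, 3.13, −1.37 and −0.76 on arrays 1 to 4, or 8.75-fold higher with CLA on array 2. Igtp, of the same family, was at 0, 2.82, −1.14 and −1.04. Gbp2 and Gbp3, guanylate-binding proteins, were at 1.97 and 1.69 on array 2 and at −1.60 and −1.50 on array 3, and Cxcl10, an interferon-induced chemokine, was at 0.34, 2.05, −0.51 and −2.02. The other 3 were Eme1 (2.45), a subunit of a DNA endonuclease, Ccdc6 (2.17), a coiled-coil protein, and Olfr1234 (1.79), an olfactory receptor. The wider list of 22 measured interferon response genes leaned the same way by less, with medians of −0.13, 0.18, −0.71 and −0.09. On array 2, 17 of the 22 were above 0, against 8, 5 and 8 on arrays 1, 3 and 4. Over 1 on array 2 were 3 of the 22, against 0.37% of all genes. The highest of the 22 there was at 2.05, the value of Cxcl10 above. This count thus overlaps with the genes picked for array 2 and is no separate support. Ifit3 was at −0.01, 0.22, −1.13 and −1.09. Array 2 was over 1 unit above the other arrays for 44 genes (0.267%) and below them for 82 (0.497%), Trpc4, a calcium channel, lying lowest at −4.99 against −0.40 to 0.01 elsewhere.

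Array 4 opposed arrays 1 and 3 in many fat cell genes. Of the 36 measured adipocyte and lipid droplet markers, 33 were above 0 on array 4, against 6 on array 1 and 7 on array 3. Plin2 and Fabp4 did not oppose in this way on array 1, at 1.09 and 1.23 there and 1.12 and 1.31 on array 4. The genes named next were picked for standing farthest from the other arrays on array 4, so their pattern partly restates that choice. Dgat2 was at −2.09, −0.75, −0.44 and 2.58, and Cav1, caveolin of adipocytes and endothelium, at −1.28, −0.51, −1.25 and 2.55. Sod3, the extracellular superoxide dismutase, was at −1.76, −1.29, −0.98 and 2.77, and Sfrp5, a Wnt inhibitor of adipocytes, at −2.45, −1.21, −2.05 and 1.81. For each of these 4 genes array 4 alone was above 0. Sncg (2.04), Trf (2.28), transferrin, and H2-Q1 (2.24) did likewise. Array 4 was over 1 unit above the others for 310 genes (1.88%) and below them for 241 (1.46%). At the low end stood H2ap (−3.14), Pclaf (−3.00), a replication clamp partner, Odam (−3.04), Mtfmt (−2.76) and Pym1 (−2.40).

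Of the lists not yet described, the 7 measured blood and erythroid markers had medians of 0.02, 0.24, −1.50 and 0.24, and the 25 adipogenic factors and PPAR gamma targets, which share members with the adipocyte list, −0.52, 0.08, −0.76 and 0.34. Of the 59 measured respiratory chain and ATP synthase genes, 46 had a mean below 0, with a median of −0.11, against 0 for all genes; 2 passed an unadjusted p of 0.05, both lower, against 3.48% of all genes. The medians were −0.22, 0.02, −0.24 and −0.20 by array. Cholesterol synthesis and uptake genes (19) had medians of 0.48, −0.10, 0.27 and −0.01, led on array 1 by Insig1 (1.66), a brake on sterol synthesis, and Dhcr7 (1.45), its last enzyme. Cell proliferation genes (42) were at 0.27, 0.01, 0.52 and −0.17. Ribosomal protein genes (59) were at 0.30, −0.15, −0.04 and −0.24.

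Among inflammatory genes, Tnf was at 0.22, 0.17, 0.07 and 0.13, and the 38 measured cytokine and acute phase genes had medians of 0.03, 0.11, −0.36 and 0.06. The macrophage genes Trem2 and Gpnmb, linked to lipid-laden macrophages, were at 1.17, 0.11, 0.42 and 0.42 and at 1.66, −0.22, 1.01 and 0.77. Both were highest on array 1 and lowest on array 2. The other macrophage markers varied: of the 34 measured, 26 had a mean above 0 and 8 below. Among the 8, C1qa, a complement subunit, was at −0.14, −0.29, −0.45 and 0.27. Fcgr1, an immunoglobulin receptor also among the 8, was at 0.21, 0.07, −0.84 and −0.78. It was the only macrophage marker with an unadjusted p under 0.05 in limma's fit. On arrays 1 to 4, 28, 16, 12 and 21 of the 34 were above 0. Of the 33 measured apoptosis genes, the labels' keyword, 1 passed an unadjusted p of 0.05 upward and none downward, against 1.15% and 3.48% of all genes, and the median was −0.07. Fatty acid and triglyceride synthesis genes (26) had medians of 0.02, −0.19, −0.17 and 0.36, with Fasn, fatty acid synthase, at −0.09, 0.61, −1.48 and 0.04. Fatty acid oxidation genes (25) had medians of −0.13, 0.02, −0.42 and 0.16, and Cpt1a, the gate of mitochondrial oxidation, was at 0.63, 0.02, −0.42 and −0.80.

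**Figure D5:**
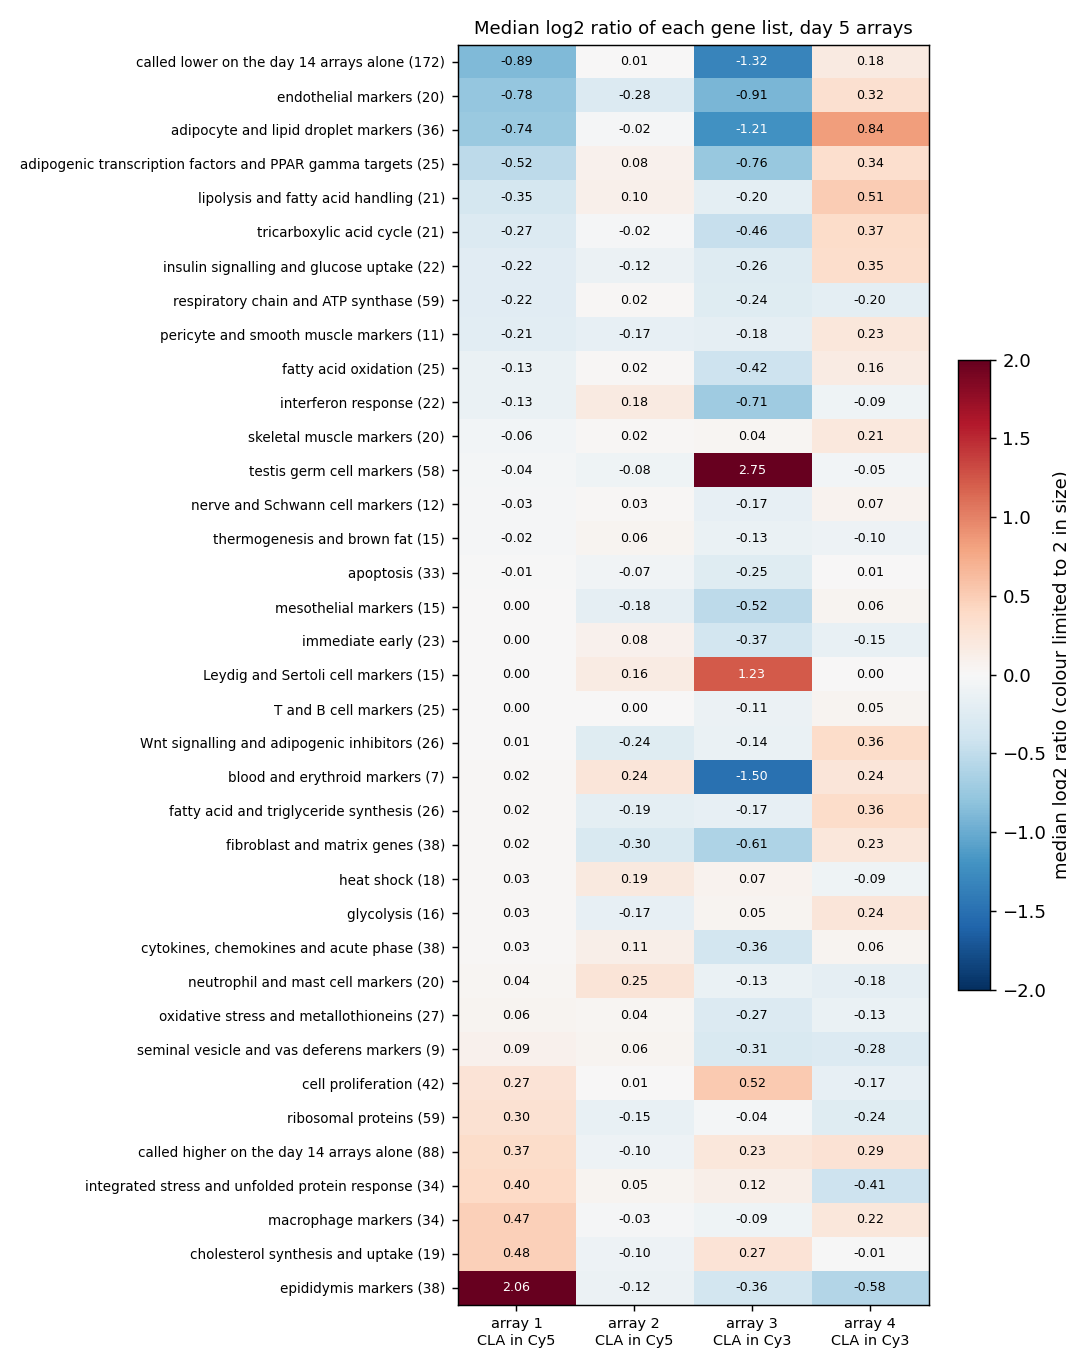
Median log2 ratio of each gene list on each day 5 array, with the number of measured genes in brackets, ordered by array 1; red is higher and blue lower with CLA. The epididymis list is highest on array 1 (2.06), the germ cell list on array 3 (2.75) and the adipocyte list on array 4 (0.84).

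Whether day 5 differed from day 14 was tested in 1 fit of all 8 arrays. limma called 0 genes for day 14 minus day 5 (0%), and 700 had an unadjusted p under 0.05. Without day 5 arrays 1 and 3, which leaves 2 arrays for that day, 1 gene was called (0.00606%): Ucp1, 3.87 ± 0.17 higher at day 14 (limma adjusted p = 0.00216). With all arrays the adjusted p of Ucp1 was 0.892, so its call rests on leaving out the 2 day 5 arrays on which it was already high. Its 4 day 14 values were 3.21, 3.66, 3.71 and 3.47.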

How the data were processed

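The deposited table holds 1 value per probe and array for 22393 probes, with none missing. The authors' background correction, normalization and filters were not given in the sources used here. Read as log10 ratios, the deposited values were multiplied by 3.32 to give log2; the unit is inferred from their size. Column medians as deposited lay between −0.0176 and 0.0026 at day 5. Intensities were not analysed here, so signal over background is unknown and the number of arrays limits the precision.

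Of the probes, 18218 carried 1 gene symbol (platform annotation, 18175 matched by Entrez number with 0 symbols changed), 16 several and 4159 none. A gene's value was the mean of its probes; of 1193 genes with more than 1 probe, 541 had probes of opposite sign at day 5. limma 3.58.1 in R 4.3.3 (lmFit, eBayes) fitted the 4 day 5 arrays with a mean and a dye term, and all 8 arrays for the difference between days; a call needed an adjusted p (Benjamini-Hochberg) under 0.05. The script was tested on simulated data. The 35 gene lists (1057 entries, 929 measured) were described by counts and medians without a test. Members and lists were chosen with earlier results of these data known.

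Genes named are the 15 with the smallest p on each side of 0 among those on 1 side on all 4 arrays, up to 3 a side per list, a list of 16 fat genes, those farthest above or below the other 3 arrays (15 for arrays 1 and 3, 8 for 2 and 4), and members of the epididymis, testis and seminal vesicle lists over 1 in size; not all are printed, and the text says where a gene was added after its values were seen. Alternatives covered the arrays in the fit, the dye term, signs, probes, centring, scaling, weights, a covariate, the variance prior, the unit, the replicate block and each array left out.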

Additional observations from a re-analysis of the deposited data

Results flagged for a closer look

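Each list median and each gene named in the text was examined for 1 day 5 array far from the other 3, by Dixon's criterion for 4 values. Chance alone marks about 1 group in 20. Of the 35 lists 6 stood out in this way, and of the 134 genes 30 did, many of which had been named because 1 array stood apart. Those on array 3 were germ cell markers at 2.75, Leydig and Sertoli cell markers at 1.23, blood and erythroid markers at −1.50, and cytokines, chemokines and acute phase genes at −0.36. Pericyte and smooth muscle markers stood out on array 4 (0.23), and respiratory chain and ATP synthase genes on array 2 (0.02), the latter within a narrow range.

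On array 1 the genes standing apart were Mybphl (4.28), Spint4 (2.66), Lcn9 (2.62), Pate5 (2.27) and Ros1 (2.06). On array 3 there were 17, of which 14 were high. Those high were Cypt1 (6.73), Tnp1 (6.51), Fabp9 (5.96), Dnah8 (5.90), Ldhc (5.89), Capza3 (5.79), Hils1 (5.72), Prss39 (5.58), Odf1 (5.43), Akap4 (5.40), Cox7b2 (5.19), Hsd3b1 (4.63), Insl3 (4.33) and Amhr2 (3.94). Those low were Gcc2 (−3.99), Hba-a1 (−2.62) and Fabp4 (−1.66). On array 2 they were Trpc4 (−4.99) and Fosl1 (1.53). On array 4 they were Trf (2.28), H2-Q1 (2.24), Pclaf (−3.00), Mtfmt (−2.76), Pym1 (−2.40) and Igfbp7 (−0.30).

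Ssx2ip lay above 0 on all 4 day 5 arrays, with a mean of 1.00, and below 0 on all 4 day 14 arrays. That pattern was picked out by sign and has no test of its own here; in the fit of all 8 arrays its difference between days had a limma adjusted p of 0.892.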

How the results depend on the processing

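limma called 0 genes at day 5 under every alternative listed here except 1. Leaving out single arrays gave 0 to 1089 genes called, the 1089 without array 4. There Hba-a1, H2-Q1 and H2ap were called with the opposite sign to the full fit, in which they were not called, and 33 of the 134 named genes were called with the same sign. With single arrays left out Hba-a1 ranged from −0.79 to 0.82, H2-Q1 from −0.68 to 0.69 and H2ap from −1.45 to 0.97. The genes with an unadjusted p under 0.05, 764 in the full fit, ranged from 62 (without array 1) to 4384 (without array 4). With the signs of arrays 3 and 4 turned there were 3332, with 2206 in the fit of all 8 arrays, and 98 without the dye term. Of the 134 genes, 83 changed sign on turning and 57 without arrays 1 and 3, none of them called. The germ cell list median of 0.65 became −0.76 with arrays 3 and 4 turned, and −0.05 to 1.38 with single arrays left out. The epididymis list median of 0.12 ranged from −0.23 to 0.75 in the same way.

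For day 14 minus day 5, the calls were 1 without day 5 arrays 1 and 3 and 0 under each other alternative, single arrays left out included. With the array number as a replicate block 0 genes were called and 464 had an unadjusted p under 0.05, against 700 without it. Same-numbered arrays deviated from their day means with correlations of −0.65, −0.47, −0.34 and 0.14, so the numbers were not taken to pair arrays. The cause of these changes was not tested, beyond the smaller number of arrays. Were the values log2 already, sizes would shrink and calls would not change.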

Other observations

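Genes of fibroblasts and matrix, not described above, had medians of 0.02, −0.30, −0.61 and 0.23 on day 5 arrays 1 to 4 over 38 measured members, and 28 had a mean below 0. Pdgfrb, a growth factor receptor of mesenchymal and mural cells, stood at −0.84, −0.56, −1.22 and −0.32. Dcn, the collagen-binding proteoglycan decorin, stood at −0.69, −0.26, −1.48 and −0.55. Both lay below 0 on every array, lowest on array 3, and neither was called by limma (adjusted p = 0.812 for each). With the day 14 dye effects subtracted, Pdgfrb stayed below 0 on every array and Dcn was at 0.11 on array 4. Timp1, an inhibitor of matrix proteases, was above 0 on arrays 1, 3 and 4 (1.27, 1.24 and 0.69) and at −1.45 on array 2.

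The 34 measured genes of the integrated stress and unfolded protein response had medians of 0.40, 0.05, 0.12 and −0.41. Xbp1, a transcription factor of the unfolded protein response, stood at 0.41, 0.28, −1.36 and −0.99, above 0 on arrays 1 and 2 and below 0 on arrays 3 and 4. Atf4, the transcription factor of the integrated stress response, stood the other way, at −0.23, −0.53, 0.93 and 1.09. Chac1, a glutathione-degrading target of that response, stood at 0.88, 1.19, 0.30 and −0.79. Hk2, a hexokinase of glycolysis, was at 0.11, 0.19, −1.41 and −1.15. Arrays 1 and 2 differ from arrays 3 and 4 in dye orientation. With the day 14 dye effects subtracted, Xbp1 was at −0.25, −0.38, −0.71 and −0.33, and Hk2 at −0.23, −0.15, −1.06 and −0.81. Atf4 was then at 0.40, 0.10, 0.30 and 0.46, so none of these genes kept its change of sign between the dye orientations.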
